A study of Homo sapiens with 4 samples.

Results

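Gene desert regions are stretches of open chromatin that lie far from any gene that encodes a protein. Here they were the nuclear regions of the authors' table that overlapped no protein-coding gene span of RefSeq (GRCh38) and lay more than 300 kb from the nearest such span. The rule used position only and no measured value. It gave 11677 of 125985 nuclear regions, or 9.27%. Open chromatin had been profiled by ATAC-seq, whose Tn5 transposase inserts sequencing adapters where DNA is accessible, in A375, an established human melanoma cell line grown in DMEM with serum. The treated group was given octanoate, a fatty acid of medium chain length, at 1 mM for 48 h and the control group received its vehicle, isopropanol, for the same time. Each group had 2 libraries, 4 in all, and the labels do not say whether these came from separate cultures, so the deposited p-values may measure technical spread only. The authors' table holds 1 comparison, octanoate over vehicle, with 0 columns for single libraries, so no value per library can be given.

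Gene deserts take up long parts of chromosomes beside genes of development and of the nervous system, and some hold distant enhancers that act on a gene at their border. Long noncoding RNA (lncRNA) genes are often found in them. They also include the DNA around centromeres, and, since antigen receptor gene segments are not listed as protein-coding, the immunoglobulin loci. Open regions inside a desert can be enhancers, insulators bound by CTCF, starts of noncoding RNAs or repeats. A375 carries the BRAF mutation common in melanoma. All 10 melanocyte and melanoma genes checked (MITF, SOX10, PMEL, MLANA, TYR, TYRP1, DCT, S100B, CSPG4 and NES) had an open region within 1 kb of their span, with highest mean signals from 11.1 at TYR to 168 at MITF; TYR and TYRP1 had none within 1 kb of a gene end. Of the markers of other cells, PTPRC and CD3E of blood had regions of up to 93.3 and 70.1, PECAM1 of endothelium of up to 26.4 and EPCAM of epithelium of up to 10.8, while KRT5 and the liver gene ALB had none. Signal here is the mean number of normalized reads over the 4 libraries.

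Sequence could be read at the listed starts of noncoding genes in the deserts. RefSeq lists 1274 start windows (250 bases before to 50 after a start) of 1107 noncoding genes inside the deserts, and 172 windows of 155 genes, 13.5%, touched an open desert region. By the same measure 34.4% of the other lncRNA starts and 66.6% of protein-coding starts were open. A window that only touches an open region counts as open, so its letters need not all be accessible. Printed here are the windows of the 2 strongest such regions, of LINC01902, which has repeated TFAP2 matches, of MIR222HG, the host of a microRNA pair known in melanoma, and of LOC105369165, which has a pair of AP-1 matches; they were chosen after the values were seen. Each is given 5′ to 3′ on the gene's strand (RefSeq, GRCh38.p14), with matches to the motifs named further on in capitals.
LINC00662: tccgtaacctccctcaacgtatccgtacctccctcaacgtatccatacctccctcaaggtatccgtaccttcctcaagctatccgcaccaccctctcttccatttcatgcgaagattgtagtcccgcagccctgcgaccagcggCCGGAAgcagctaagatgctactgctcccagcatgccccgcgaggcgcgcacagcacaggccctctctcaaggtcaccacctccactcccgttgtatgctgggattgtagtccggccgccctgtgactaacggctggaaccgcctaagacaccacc
LINC02987: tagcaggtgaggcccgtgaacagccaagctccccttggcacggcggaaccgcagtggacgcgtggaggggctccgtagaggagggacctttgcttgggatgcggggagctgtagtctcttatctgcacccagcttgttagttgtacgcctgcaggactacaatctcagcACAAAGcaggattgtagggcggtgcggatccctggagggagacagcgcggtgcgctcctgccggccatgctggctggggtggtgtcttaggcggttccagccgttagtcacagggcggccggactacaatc
LINC02750: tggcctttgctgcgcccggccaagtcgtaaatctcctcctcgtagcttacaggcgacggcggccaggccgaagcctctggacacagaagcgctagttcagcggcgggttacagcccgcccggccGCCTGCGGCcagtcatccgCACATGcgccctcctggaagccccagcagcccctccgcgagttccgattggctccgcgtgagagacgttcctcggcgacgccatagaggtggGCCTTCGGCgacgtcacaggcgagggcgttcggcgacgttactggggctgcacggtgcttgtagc
LINC01902: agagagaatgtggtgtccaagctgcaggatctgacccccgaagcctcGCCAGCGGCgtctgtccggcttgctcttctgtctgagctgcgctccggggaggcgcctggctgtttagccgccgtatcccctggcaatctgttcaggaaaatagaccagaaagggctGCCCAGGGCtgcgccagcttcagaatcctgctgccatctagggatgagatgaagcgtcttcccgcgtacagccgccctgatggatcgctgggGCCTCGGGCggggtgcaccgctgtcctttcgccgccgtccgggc
MIR222HG: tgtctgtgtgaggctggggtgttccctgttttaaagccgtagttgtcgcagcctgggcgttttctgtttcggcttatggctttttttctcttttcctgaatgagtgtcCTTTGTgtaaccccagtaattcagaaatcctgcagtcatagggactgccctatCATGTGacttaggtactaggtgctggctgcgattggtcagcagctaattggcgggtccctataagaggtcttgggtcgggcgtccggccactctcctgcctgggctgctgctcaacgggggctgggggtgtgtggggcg
LOC105369165: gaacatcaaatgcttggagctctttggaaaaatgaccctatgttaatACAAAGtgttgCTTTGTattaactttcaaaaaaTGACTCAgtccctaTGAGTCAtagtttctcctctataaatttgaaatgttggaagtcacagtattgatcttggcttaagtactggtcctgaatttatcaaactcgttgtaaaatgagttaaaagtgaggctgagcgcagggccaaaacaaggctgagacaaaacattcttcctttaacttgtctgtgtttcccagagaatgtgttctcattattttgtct

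LINC00662 (chr19:27793891-27794190, minus strand) and LINC02987 (chr19:27793645-27793944, plus strand) are lncRNA genes that start back to back, and their windows overlap. Both lay in 1 region with a mean signal of 208, the highest at any desert start, 1410 kb from UQCRFS1, a subunit of respiratory complex III, in the stretch that holds the centromere of chromosome 19. Its log2 fold change (octanoate over vehicle, called log2 change from here on) was 0.42 with a standard error (SE) of 0.15 and did not pass (adjusted p 0.119, DESeq2) in the authors' deposited table. The window of LINC00662 holds the ETS letters at base 145, and that of LINC02987 the SOX letters at base 170, counted from the 5′ end of the window. LINC02750 (chr11:50298313-50298612, plus strand) holds 2 TFAP2 matches and 1 MITF match; its region, in the centromere stretch of chromosome 11, had a mean signal of 180 and a log2 change of 0.38 (adjusted p 0.221) in the authors' deposited table. LINC01902 (chr18:39841459-39841758, plus strand) holds 3 TFAP2 matches, and its region, with a mean signal of 88.4, had a log2 change of -0.07 (adjusted p 0.909) in the authors' deposited table. MIR222HG (chrX:45770218-45770517, minus strand) gives rise to miR-221 and miR-222, and the region at its start had a mean signal of 69.2 and a log2 change of -0.02 (SE 0.26, adjusted p 0.975) in the authors' deposited table. LOC105369165 (chr2:52934452-52934751, minus strand) holds both forms of the AP-1 site and 2 SOX matches; its region had a mean signal of 61.5 and a log2 change of 0.05 in the authors' deposited table. None of the tested regions at these starts passed, where 1.02% of all tested regions passed. The region at LOC105369165 was under the signal needed to be tested. At the last 3 starts the log2 changes were within 1 standard error of 0.

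Open desert starts differed in base composition from closed ones. The median GC content was 48.3% in the 172 open windows and 40.0% in the 1102 closed ones, against 58.7% in all 34943 start windows of the reference table. The median number of CpG pairs per window was 5 in open and 2 in closed desert windows, and 14 in all windows. Letters were searched on both strands. The AP-1 site (TGACTCA or TGAGTCA, each the reverse complement of the other) was found in 13.95% of open and 5.44% of closed desert windows, against 4.96% of all. The TFAP2 site (GCCNNNGGC) was found in 17.4% of open and 6.35% of closed windows, against 23.2% of all. ETS letters (CCGGAA) were in 6.40% and 3.18%, against 17.2% of all. SOX letters (ACAAAG or ACAATG) went the other way, with 31.4% of open and 41.5% of closed windows, against 24.5% of all. TEAD letters (GGAATG) were in 14.5% of open and 16.4% of closed desert windows, against 14.04% of all, and MITF letters (CACGTG or CATGTG) in 19.2% and 19.7%, against 17.6%. The letters of the CTCF core were in 4.07% and 3.63%, against 7.34% of all. In the 3998 open start windows of lncRNA genes outside deserts the median GC content was 63.3%, and AP-1 letters were found in 8.43%, TFAP2 letters in 29.6%, ETS letters in 22.1%, SOX letters in 21.6% and those of the CTCF core in 8.38%. A match of letters is not a bound site, and the part of GC content in these differences was not tested.

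The 147 desert regions at a listed noncoding start were stronger and wider than the 11530 elsewhere, with a median signal of 14.5 against 8.99 and a median width of 630 bp against 394 bp. Their median log2 change was 0.26 (95% interval 0.21 to 0.32) against 0.23 (0.22 to 0.24) in the authors' deposited table. These intervals come from order statistics and cover the spread between regions, not between replicates. Of the 147, 18 were tested and 0 passed, where 1.02% of all tested regions passed, so few calls could be seen among 18. MicroRNA genes were few: 9 desert regions overlapped 12 of them. One held hsa-miR-4495 (chr12:97939097-97939117, minus strand), shown here with its seed, bases 2 to 8, in capitals as the only one with a listed sequence at a tested region outside the repeated short arm of chromosome 21.
hsa-miR-4495: aAUGUAAAcaggcuuuuugcu
That region had a mean signal of 107 and a log2 change of 0.31 (SE 0.20, adjusted p 0.469) in the authors' deposited table.

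Desert regions were weak, narrow and sparse. Their median signal was 9.04 (middle 50% 5.44 to 17.3, range 0.58 to 2353) against 12.6 in the other 114308 nuclear regions. Their median width was 396 bp against 442 bp, and the signal per kb of width was 23.2 against 28.3. Without the stretches around centromeres, deserts held 27.8 regions per Mb over 402 Mb, and the rest of the covered genome held 46.4 per Mb over 2462 Mb. The median gap from a desert region to the nearest other region was 9.19 kb, against 5.67 kb. The authors adjusted p-values over regions with a mean signal of at least 63.8, which are called tested here. Only 358 desert regions (3.07%) reached it, against 9.47% of the others, so deserts made up 3.20% of tested nuclear regions.

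After octanoate, desert regions had nearly the same median change as the rest of the genome. Their median log2 change was 0.23 (0.22 to 0.24), with a middle 50% from -0.11 to 0.56, and that of the other nuclear regions was also 0.23 (0.23 to 0.23), in the authors' deposited table. The difference was 0.0046 (-0.0086 to 0.018), which spans 0. A smaller share of desert regions was above 0, 68.2% against 72.5%, and their median standard error was larger, 0.71 against 0.60. Because the median of all nuclear regions was 0.23, a positive value in a desert is not by itself a difference from other chromatin.

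Along the distance to the nearest gene the medians were lowest at gene ends, highest up to 300 kb outside genes and intermediate inside genes and in the deserts. In the authors' deposited table the median log2 change was 0.14 (0.14 to 0.15) within 1 kb of a gene end and 0.24 (0.24 to 0.25) farther inside genes. Outside genes it was 0.27 (0.26 to 0.28) up to 10 kb, 0.26 (0.26 to 0.27) at 10 to 100 kb and 0.26 (0.25 to 0.27) at 100 to 300 kb. Within the deserts it was 0.24 (0.23 to 0.26) at 300 to 500 kb in 5191 regions, 0.23 (0.21 to 0.25) at 500 kb to 1 Mb in 4784 and 0.22 (0.19 to 0.24) beyond 1 Mb in 1702. The intervals of these 3 desert classes overlap. Against all 40771 regions from 10 to 300 kb, whose median was 0.26, desert regions were lower by 0.029.

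**Figure D1:**
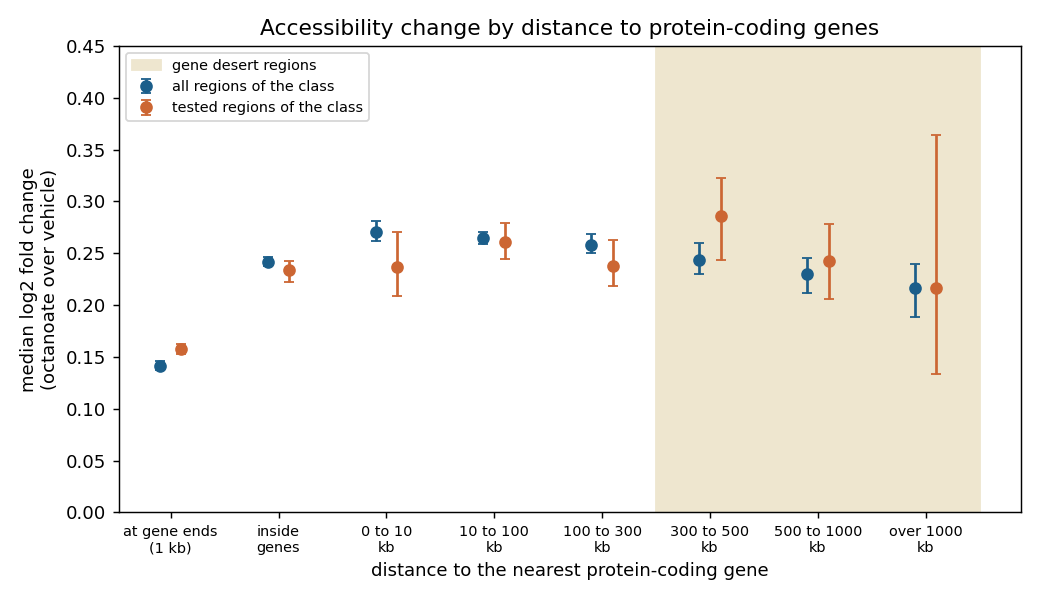
Median log2 change (octanoate over vehicle, deposited; vertical axis) by distance to the nearest protein-coding gene span (horizontal axis), with 95% intervals over regions, for all nuclear regions and for tested regions; the desert classes are shaded. Medians of all regions are lowest at gene ends, at 0.14, and run from 0.24 to 0.22 across the 3 desert classes.

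Tested desert regions had a higher median than other tested regions, but not than tested regions 10 to 300 kb from a gene as 1 class. Their median log2 change was 0.25 (0.23 to 0.29) against 0.19 (0.18 to 0.19) in the 10826 other tested nuclear ones, by the authors' deposited table. These others included 6215 regions no more than 1 kb from a gene end, where the tested median was 0.16. Against the 1766 tested regions 10 to 300 kb from a gene the difference was -0.00064; the tested medians by class were 0.24 (0.21 to 0.27) up to 10 kb outside genes, 0.26 (0.24 to 0.28) at 10 to 100 kb and 0.24 (0.22 to 0.26) at 100 to 300 kb. Within 10 bins of mean signal the desert median exceeded that of other regions in 3 bins, the top 3, and was 0.26 against 0.18 in the top bin, but 0.30 against 0.32 in the bottom bin. Compared with regions 10 to 300 kb from a gene it was higher in 1 of the 10 bins.

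Few desert regions passed the test. An adjusted p under 0.05 (DESeq2) was listed in the authors' deposited table for 6 of 358 tested desert regions (1.68%), where 1.02% of all tested regions and 2.49% of those 10 to 300 kb from a gene (44 of 1766) passed. Each of the 6 was higher with octanoate, and 0 desert regions passed as lower; all 114 regions called in the whole table were higher too. At an unadjusted p under 0.05, 81 tested desert regions (22.6%) were higher and 1 was lower in the authors' deposited table; the background was 14.8% higher and 0.107% lower, and 22.99% of tested regions 10 to 300 kb from a gene were higher. At an adjusted p under 0.1 there were 18 desert regions, where 2.98% of tested regions passed. Over all desert regions, tested or not, 327 (2.80%) were higher and 37 (0.317%) lower at an unadjusted p under 0.05 in the authors' deposited table, beside a background of 3.58% and 0.179%. Once the median of tested regions, 0.19, was subtracted from each fold change, 0 of the 6 passed, with a background of 0.0536%; with the median of all regions subtracted it was also 0 (background 0.0447%). Adjustment over regions at or above the 25th percentile of signal gave 2 desert regions (background 0.0328%), of which 1 was among the 6, an adjusted p under 0.01 left 2 (background 0.313%) and a required doubling left 0 (background 0.0983%).

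The region that passed most clearly lay on chromosome 1 from 238408976 to 238409912, inside the lncRNA gene LOC105373220, between ZP4, an egg-coat glycoprotein gene 518 kb away, and CHRM3, a muscarinic acetylcholine receptor gene 977 kb away. Its mean signal was 112, which at the deposited fold change stands for 76.5 in vehicle and 148 in octanoate, if the fold is taken as the ratio of the group means. It rose by 0.95 (SE 0.21, adjusted p 0.00235) in the authors' deposited table, or by 0.76 relative to the tested median. The stretch between ZP4 and CHRM3 held 45 desert regions, 7 of them tested. Their log2 changes in the authors' deposited table were 0.95, 0.66, 0.62, 0.29, 0.20, 0.0038 and -0.02, and the median over all 45 was 0.14 (-0.02 to 0.27).

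On chromosome 13 a region from 89726491 to 89727576 rose by 0.96 (SE 0.22, adjusted p 0.00733) in the authors' deposited table, from an implied 61.4 in vehicle to 119 in octanoate. It lay 2047 kb from SLITRK5, a transmembrane protein gene of synapses, and 1671 kb from GPC5, a glypican gene, farther from any protein-coding gene than the other 5. The same stretch held the only tested desert region that was lower at an unadjusted p under 0.05 in the authors' deposited table, from 90717177 to 90718305, with a log2 change of -0.36 (unadjusted p 0.0477, adjusted p 0.330) and implied means of 151 and 118. The other 2 tested regions there stood at 0.20 and 0.13, and the median over all 125 desert regions of the stretch was 0.16 (0.07 to 0.24).

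On chromosome 8 there were 2 such regions. One, from 137614097 to 137615169, had the highest log2 change of all tested desert regions, 0.99 (SE 0.25, adjusted p 0.0174) in the authors' deposited table, with implied means of 46.8 and 93.1. It lay between KHDRBS3, an RNA-binding protein gene, and FAM135B. The 83 desert regions of that stretch had a median of 0.37 (0.24 to 0.46), with 63 above 0. The second, from 127035499 to 127036405, lay between LRATD2 and POU5F1B, a copied form of the gene for the pluripotency factor OCT4, and rose by 0.94 (SE 0.23, adjusted p 0.0149) in the authors' deposited table, from an implied 55.5 to 107. MYC, the growth-promoting transcription factor gene, lies beyond POU5F1B, and the desert on its far side up to GSDMC held 59 regions with a median of 0.33 (0.18 to 0.54), 2 of them tested and 0 called.

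The last 2 had smaller fold changes and higher signal. In the centromere stretch of chromosome 20, the region from 29444824 to 29445999 rose by 0.60 (SE 0.15, adjusted p 0.0168) in the authors' deposited table, from an implied 158 to 240. A second region of that stretch, from 29496618 to 29497961, had a log2 change of 0.61 (adjusted p 0.0583) in the authors' deposited table. The other, on chromosome 1 from 55580431 to 55582617, lay 365 kb from the deubiquitinase gene USP24 and 912 kb from the lipid phosphatase gene PLPP3, and rose by 0.65 (SE 0.17, adjusted p 0.0191) in the authors' deposited table, from an implied 128 to 200.

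**Figure D2:**
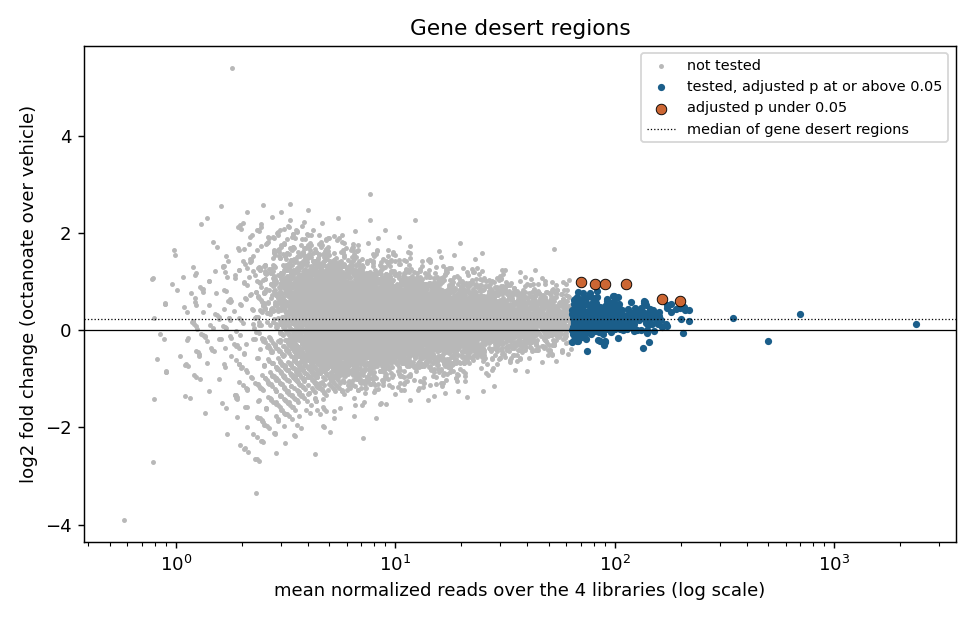
Deposited log2 change (vertical axis) against mean signal in normalized reads (horizontal log axis) of the 11677 gene desert regions; tested regions and the 6 with an adjusted p under 0.05 are marked. The spread narrows as signal grows, and the tested regions run from -0.42 to 0.99.

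The region with the smallest unadjusted p of all desert regions was not among the tested ones. It lay near the end of the long arm of chromosome 11, from 134851545 to 134852328, 439 kb beyond B3GAT1, the gene of the glucuronyltransferase that makes the HNK-1 epitope. Its mean signal of 53.0, implied 25.4 in vehicle and 80.6 in octanoate, fell short of the 63.8 needed. Its log2 change was 1.67 (SE 0.30, unadjusted p 2.99e-08) in the authors' deposited table. Adjusted over all regions, it passed (adjusted p 0.000896), and the region near ZP4 was the only other desert region under 0.05, beside a background of 0.0198%. The next smallest unadjusted p among untested desert regions belonged to a region 647 kb from CAMK1G on chromosome 1, with a log2 change of 1.24 and a p of 0.000134 in the authors' deposited table.

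At the lower end, the lowest tested region lay on chromosome 2 from 58632570 to 58635585, inside the lncRNA gene LINC01122 and 391 kb from FANCL, a ubiquitin ligase gene of the Fanconi anaemia pathway. Its log2 change was -0.42 (SE 0.25, adjusted p 0.419) in the authors' deposited table. Another region inside LINC01122, from 58844895 to 58846024, stood at 0.78 (adjusted p 0.0702) in the authors' deposited table. LINC01122 held 37 desert regions in all, with a median of 0.28 (0.18 to 0.40). The remaining low ones lay 648 kb from AMY1C, a salivary amylase gene (-0.30), 1021 kb from NR2F1, a nuclear receptor gene (-0.25), and on the short arm of chromosome 21 over MIR3648-2 and MIR10396A (-0.24), with adjusted p from 0.555 to 0.691 in the authors' deposited table. Just short of the threshold, a region 401 kb from MCTP2 on chromosome 15 stood at 0.81 (adjusted p 0.0537) in the authors' deposited table. Also between 0.05 and 0.1 were regions 471 kb from the limb and heart factor TBX3 (0.71), 1140 kb from BCL11B, a T-cell and neuron transcription factor gene (0.78), and a pair between MAT2B and TENM2 (0.67 and 0.51) in the authors' deposited table.

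The 5 strongest desert regions did not pass the test, where 1.02% of all tested regions passed, so few calls could be seen among 5. The highest signal of all, 2353, lay on chromosome 17 from 22521212 to 22524692 over MTRNR2L1, a nuclear copy of mitochondrial ribosomal RNA sequence; its log2 change was 0.13 (adjusted p 0.447) in the authors' deposited table. The second, with a signal of 697, covered 8463 bp on chromosome 5 from 100046262 to 100054724 and overlapped 11 mitochondrial pseudogenes; its log2 change was 0.34 (adjusted p 0.168) in the authors' deposited table. In all, 12 desert regions overlapped such nuclear copies, with a median log2 change of 0.18 (0.10 to 0.34). The mitochondrial genome itself had a signal of 531681 and a log2 change of 0.10 (SE 0.08, adjusted p 0.584) in the authors' deposited table. Reads of nuclear copies and of the mitochondrial genome cannot be told apart here, so the signal of these regions is uncertain. Next came a region in the centromere stretch of chromosome 4 (signal 497, log2 change -0.22, adjusted p 0.347) and one between NDFIP2 and SPRY2 on chromosome 13 (347, 0.25, adjusted p 0.298), in the authors' deposited table. SPRY2 encodes an inhibitor of growth factor signalling. After these came a region between IFTAP and LRRC4C on chromosome 11, which had a signal of 218 and a log2 change of 0.19 in the authors' deposited table.

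The desert regions were also described by stretch. A stretch here is the interval between neighbouring protein-coding genes, and 552 stretches, chromosome ends included, held a desert region. The 216 with at least 20 held 9102 regions, 77.9% of all. Their medians ran from -0.15 to 0.72, with quartiles of 0.10, 0.23 and 0.34; 200 were above 0 and 16 below. The 95% interval of the median lay wholly above 0 in 117 stretches and wholly below 0 in 1. All nuclear regions had a median of 0.23, so an interval above 0 is not by itself a difference from other chromatin. The largest by number were AGA to TENM3 on chromosome 4 (150 regions, median 0.22), MAT2B to TENM2 on chromosome 5 (136, 0.21), CDC73 to KCNT2 on chromosome 1 (127, 0.13), SLITRK5 to GPC5 (125, 0.16) and PCDH7 to ARAP2 on chromosome 4 (114, 0.08). The last held the 5 regions farthest from genes with a gene known on both sides, 2323 to 2422 kb away, whose log2 changes ran from -0.63 to 0.51 in the authors' deposited table.

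The stretch with the highest median lay on chromosome 10 between MKI67, the gene of the proliferation antigen Ki-67, and MGMT, a DNA repair gene: 0.72 (0.39 to 1.01), with 33 of 38 regions above 0. It came within 4.63 Mb of the end of that chromosome and held 0 tested regions. ALG10 to ALG10B on chromosome 12 and KCNJ18 to WSB1 on chromosome 17, both with a centromere inside, followed at 0.68 each (24 of 27 and 37 of 43 above 0). SLC4A3 to EPHA4 on chromosome 2 stood at 0.58 (29 of 34 above 0). At the other end were EPHA5 to CENPC on chromosome 4 at -0.15 (10 of 23 above 0), CDH2 to DSC3 on chromosome 18 at -0.14 (15 of 40), SOX2 to ATP11B on chromosome 3 at -0.14 (10 of 26), EPHA7 to MANEA at -0.13 (17 of 42) and CD109 to COL12A1 at -0.13 (9 of 20), both on chromosome 6. The intervals of these 5 low medians reached above 0. The single stretch with its interval below 0 was ZIC1 to AGTR1 on chromosome 3, at -0.11 (-0.30 to -0.03) with 8 of 30 regions above 0; it is named after its values were seen.

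**Figure D3:**
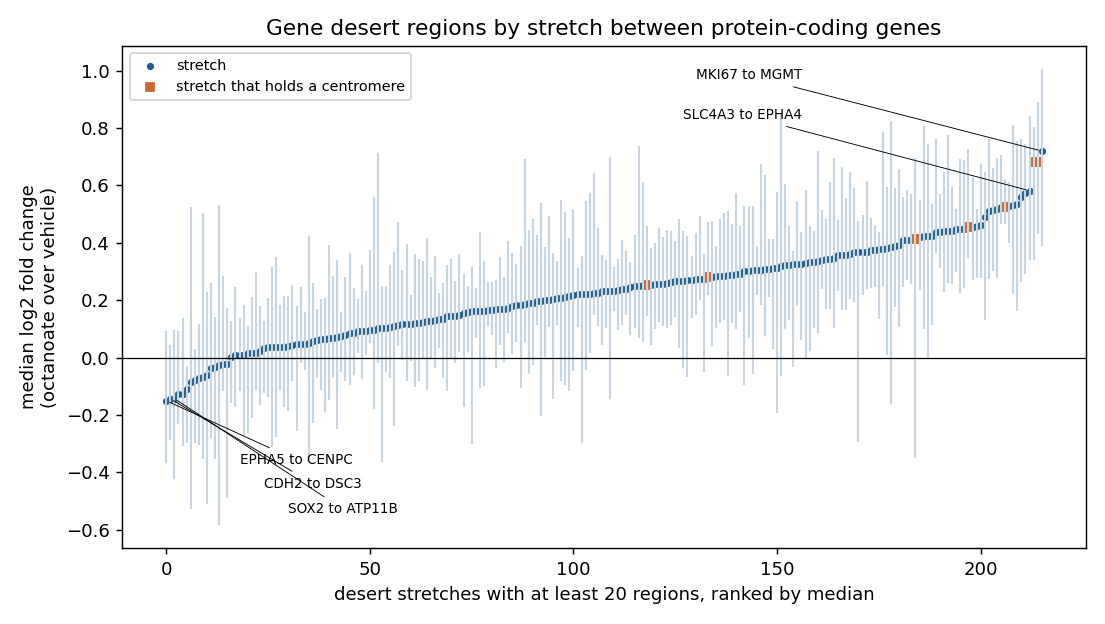
Median log2 change (vertical axis) of each of the 216 stretches with at least 20 gene desert regions, ranked (horizontal axis), with its 95% interval over regions; squares mark stretches that hold a centromere and the line marks 0. The medians run from -0.15 to 0.72 and 200 lie above 0, where the median of all nuclear regions is 0.23.

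Deserts beside transcription factor genes and deserts beside adhesion genes were then set side by side. Of 68 transcription factor genes listed, 41 bordered a desert stretch, and the 1082 regions there had a median log2 change of 0.26 (0.21 to 0.28) in the authors' deposited table. Of 64 genes for cell adhesion and axon guidance, 50 bordered one, and their 2499 regions had a median of 0.18 (0.16 to 0.20). The 8096 regions beside neither list stood at 0.25 (0.23 to 0.26). At an unadjusted p under 0.05, 42 regions were higher and 3 lower beside transcription factor genes, and 49 higher (1.96%) and 16 lower (0.640%) beside adhesion genes, where 3.58% and 0.179% of all regions were. Among tested regions 0 of 35 passed beside the first list, 1 of 74 beside the second and 5 of 249 beside neither, where 1.02% of all tested regions passed; counts this small do not set the lists apart.

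Among 27 transcription factor genes with at least 10 desert regions beside them, the median was below 0 for 2, SOX2 (-0.12, 13 of 32 regions above 0) and ZIC1. SOX2 is a factor of stem and neural cells, and ZIC1 of neural crest and cerebellum. For 18 the interval lay above 0, where the median of all nuclear regions was 0.23. NR2F2, an orphan nuclear receptor gene, had the most regions, 119, with a median of 0.23 (0.12 to 0.34). SOX9, whose desert is known to hold distant enhancers, stood at 0.26 (0.10 to 0.45) over 41 regions, and TFAP2A, a factor of neural crest and melanocytes, at 0.26 (0.12 to 0.45) over 51. ZEB2, a repressor of epithelial genes that melanocytes also use, stood at 0.06 (-0.07 to 0.17) over 87. High medians were found beside SALL3 (0.56, 34 of 39 above 0), IRX2 (0.55, -0.14 to 0.75, 8 of 12), ID2 (0.44, 38 of 47) and BCL11B (0.44).

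Among 43 adhesion and guidance genes the median was below 0 for 7, and these were 5 cadherin genes (CDH12, CDH2, CDH6, CDH20 and CDH9, at -0.12, -0.11, -0.08, -0.05 and -0.02) and the ephrin receptor genes EPHA5 (-0.17) and EPHA7 (-0.13). None of their intervals lay wholly below 0. Of the other cadherin genes, CDH10, CDH11, CDH8, CDH7 and CDH18 stood between 0.03 and 0.07 and CDH4 at 0.38 (0.25 to 0.78). CDH8 and CDH11 border a common stretch, as do CDH9 and CDH10 and also CDH12 and CDH18, and its regions count under both genes. Of the other ephrin receptor genes, EPHA6 stood at 0.08 (-0.08 to 0.28) and EPHA3, whose stretch holds a centromere, at 0.25 (0.14 to 0.46); EPHA4, which the list does not hold, borders the stretch at 0.58 given above. For 22 of the 43 the interval lay above 0, where the median of all nuclear regions was 0.23. The highest were TMEM132B (0.45, 46 of 52 regions above 0), TMEM132C (0.44), TENM4, a teneurin gene (0.42, 43 of 56), and CDH4; CNTN5, a gene of neuronal adhesion, stood at 0.37.

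Deserts near chromosome ends and centromeres stood apart from those along the arms. In the authors' deposited table the 420 regions in stretches around centromeres and on short arms of acrocentric chromosomes had a median log2 change of 0.49 (0.44 to 0.52), with 82.4% above 0, and 24 were tested, with a median of 0.40 (0.19 to 0.47) and 1 called, where 1.02% of all tested regions were. Less than 5 Mb from a chromosome end, 551 desert regions stood at 0.39 (0.34 to 0.45), where other regions equally near an end stood at 0.33 (0.32 to 0.34). Farther than 5 Mb from an end the medians were 0.23 in deserts and 0.22 elsewhere. Only 4.72% of desert regions lay within 5 Mb of an end, against 8.55% of others. The 93 regions beyond the outermost protein-coding gene of a chromosome had a median of 0.44 (0.30 to 0.57), and 59 of them belong to the receptor loci described next. In the loci of immunoglobulin and T-cell receptor segments, which are rearranged only in lymphocytes, 96 regions stood at 0.50 (0.40 to 0.59), 83.3% above 0: 60 in IGH at 0.51 (0.39 to 0.61), 31 in IGK at 0.45 (0.24 to 0.69), 4 in the T-cell receptor locus of TRA and TRD at 0.22 (3 above 0) and 1 at a segment elsewhere. Of the 96, 59 also lay within 5 Mb of a chromosome end, so position and locus cannot be told apart for them.

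The median signal was 7.83 around centromeres and 6.24 in receptor loci. Medians of log2 change were also taken on both sides of a signal of 12.2, the median of all nuclear regions. The remaining deserts lay outside centromere stretches, tips beyond the outermost genes, receptor loci and repeat copies. Under that signal the medians were 0.49 (0.40 to 0.54) around centromeres, 0.46 (0.31 to 0.61) in receptor loci and 0.23 (0.21 to 0.25) in the remaining deserts. At or above it they were 0.48 (0.43 to 0.53), 0.55 (0.40 to 0.66) and 0.21 (0.20 to 0.23). The part of signal in these differences was not tested. Reads in repeats around centromeres can map to several places, and the part of mapping in their fold change was not tested. The remaining deserts held 11120 regions, with a median of 0.22 (0.21 to 0.23). In 3302 desert regions inside a lncRNA gene the median was 0.23 (0.21 to 0.25), against 0.23 (0.22 to 0.25) in the 8375 outside. Among lncRNA genes with at least 13 desert regions, the medians ran from -0.33 (-0.53 to 0.22; 11 of 23 regions above 0) in LOC124902439 to 0.54 (0.26 to 0.76; 14 of 14) in LOC105376214. Medians over so few regions vary more than those over all of them.

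**Figure D4:**
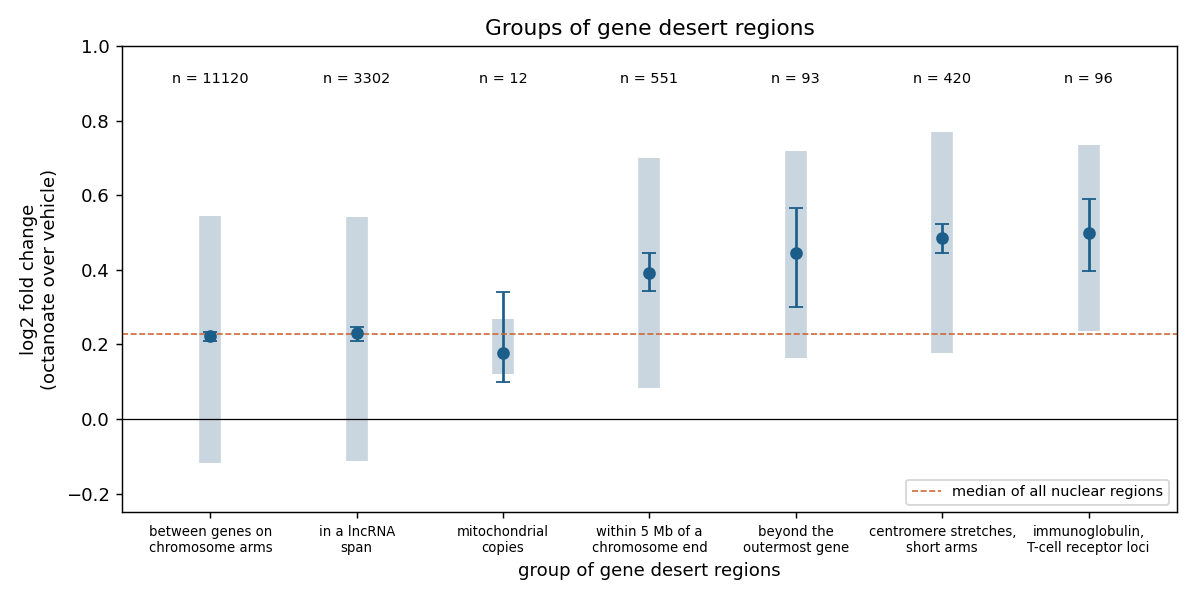
Median deposited log2 change (vertical axis) of groups of gene desert regions (horizontal axis). Points are medians, thin lines 95% intervals and bars the middle 50% of regions. The dashed line is the median of all nuclear regions, 0.23. Regions around centromeres, beyond the outermost genes and in receptor loci lie above that line, at 0.49, 0.44 and 0.50. The last 2 groups share 59 regions.

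By chromosome, desert regions were most numerous on chromosomes 4 (1297), 2 (1194), 5 (951), 3 (853) and 1 (849), which held 5144 together. They made up 19.3% of regions on chromosome 13 and 2.09% on chromosome 19. The desert median exceeded that of other regions in 17 of the 23 chromosomes with at least 20 desert regions. It was highest on chromosome 22, at 0.55 (0.48 to 0.68) over 68 regions against 0.21, and lowest on chromosome 6, at 0.12 against 0.22. Chromosomes 3 (0.15 against 0.24) and 1 (0.17 against 0.26) were also lower in deserts. On chromosome 19, 43 of its 45 desert regions lay around the centromere. Without centromere stretches, chromosome tips, receptor loci and repeat copies, 14 of 22 chromosomes had a higher desert median; chromosome 22 stood at 0.59 (0.42 to 0.75) over 36 regions and chromosome 6 at 0.12 (0.07 to 0.17) over 641.

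**Figure D5:**
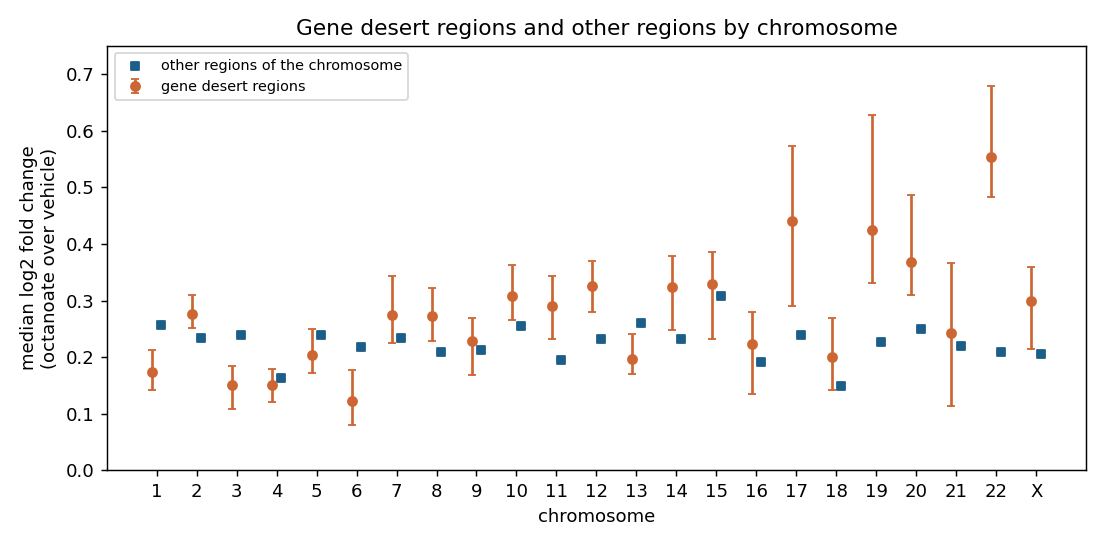
Median log2 change (deposited) of gene desert regions, with 95% intervals over regions, and of the other nuclear regions of the same chromosome, for the 23 chromosomes with at least 20 gene desert regions. Desert medians run from 0.12 on chromosome 6 to 0.55 on chromosome 22.

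The 10 regions just inside the 300 kb limit, 300.029 to 300.234 kb from a gene, had signals from 5.25 to 59.8 and log2 changes from -0.44 to 0.93 with a median of 0.42; the 10 just outside, at 299.787 to 299.975 kb, had signals from 3.07 to 26.9 and log2 changes from -1.18 to 1.04 (median 0.20) by the authors' deposited table. In each set 8 of 10 were above 0 and 0 were tested. Of the 5 regions farthest from a gene, 3 lay on chromosome Y beyond CDY1, at over 31 Mb, with log2 changes of 0.11 (SE 1.505), -0.58 (SE 0.90) and 0.60 (SE 0.27), and 2 on the short-arm side of chromosome 22, at 4840 and 4844 kb from OR11H1, with log2 changes of 1.12 (SE 0.39) and 1.98 (SE 1.21) in the authors' deposited table; 0 of the 5 were tested.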

How the data were processed

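ATAC-seq libraries of A375 cells, 2 with octanoate and 2 with vehicle, were described by 1 table that the authors deposited. Per the submitters' processing notes, the tools were Trim Galore, cutadapt, FastQC, Bowtie2, Picard, MACS2, featureCounts, DESeq2 and bedtools 2.29.1, with the build hg38; their roles, and whether reads were shifted for the cut of Tn5, are not given in the sources used here. Per the file headers, the deposited signal is a mean of normalized reads over all 4 libraries. The log2 fold change that the authors deposited compares octanoate with vehicle and has a standard error; the deposited score is the ratio of these, and the deposited p-value and adjusted p-value belong to that score. The adjusted p equals Benjamini-Hochberg adjustment over 11185 regions (mean at least 63.8), mitochondrial genome included, and is listed as 1 in 114801 others, treated as not tested.

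The labels state an average of 40 to 50 M read pairs per sample; depth per library is unknown, so no counting interval is given. The groups were not tested anew: calls are the authors' (DESeq2, 2 against 2), and centred or re-adjusted p-values were recomputed from the deposited columns. Distances were taken to 20033 protein-coding genes of RefSeq (GRCh38.p14); 32 entries placed over 5 Mb before a chromosome's first region were not used as flanking genes. Implied group means assume that the fold is the ratio of the means. Intervals of medians are 95% order-statistic intervals over regions. Members and gene lists were chosen with earlier results of these data known.

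Named were all desert regions past the threshold, the 5 highest and lowest tested, the 5 strongest, the 5 farthest and those at the 300 kb limit; the 5 stretches with most regions and the 5 with the highest and lowest medians; and genes of both lists beside at least 10 regions; 1 such stretch and 2 such genes are not reported here. The windows, microRNA, untested region and groups were added after the values were seen. Alternatives covered the threshold, adjustment, zero point, distance and genes. Motifs of the regions themselves were not searched, so start windows from the RefSeq table were used. Scripts (Python 3.11.15, pandas 2.3.3, scipy 1.17.1) were tested on simulated data.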

Additional observations from a re-analysis of the deposited data

How the results depend on the processing

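The count of desert regions past the threshold, 6, was 4 at a distance over 500 kb and 5 without centromere stretches, chromosome tips, receptor loci and repeat copies. It became 2 at an adjusted p under 0.01 (0.313% of all tested regions) and 18 under 0.1 (2.98%). It was 2 when p-values were adjusted over all regions (0.0198%) and 2 when adjusted over regions at or above the 25th percentile of signal (0.0328%). At the deposited threshold, which 1.02% of all tested regions passed, the count was 12 at a distance over 200 kb. There it was 0 when noncoding genes also bounded deserts, which left 193 regions. It was also 0 with a doubling required (0.0983%) and after centring on the median of tested regions (0.0536%) or of all regions (0.0447%). At a deposited unadjusted p under 0.05 (DESeq2), 81 tested desert regions were higher, where 14.8% of all tested regions were. The median log2 fold change, 0.23, became 0.18 when noncoding genes bounded deserts, 0.25 in tested regions, 0.22 without the groups just named and 0.0042 after centring on all regions, whose own median is 0.23. The difference from other regions, 0.0046, was -0.046 when noncoding genes bounded deserts, 0.070 in tested regions and 0.043 as the median within chromosomes. It was -0.020 as the median within bins of signal and -0.029 against regions 10 to 300 kb from a gene. Its sign thus depended on these choices, and the cause was not tested. The median over stretches moved from 0.23 to 0.24 with at least 10 regions each. The setting without these groups and those against regions 10 to 300 kb from a gene were chosen after seeing the data.

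No paired analysis was possible because values of single libraries are absent from the table; leaving out each library was not run for the same reason, and motifs in the regions were not searched without a genome. With most desert regions under the tested mean and a median standard error of 0.71, single untested regions could not show changes of the size seen in the median.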
